A study of Mus musculus with 6 samples.

Results

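The nuclear genes of the mitochondrial respiratory chain were compared between BV2 cells and BV2 cells labelled Tfam knockout. Members were taken from the count table by gene symbol: the Nduf genes of complex I (series a, b, c, s and v), Sdha to Sdhd of complex II, the Uqcr genes and Cyc1 of complex III, cytochrome c (Cycs), the Cox4 to Cox8 genes of complex IV and the Atp5 genes of the ATP synthase, complex V. The rule used no measured value and found 81 of the 17872 genes in the table. Of these, 79 had enough counts to be tested, among 13403 genes tested in all. The other 2, Cox6c2 and Ndufa11b, are annotated as processed pseudogenes and had at most 11 counts in any library. Ndufa4 carries a complex I name but is a subunit of complex IV and was counted there.

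BV2 is an immortalised mouse microglial line. One group was 3 libraries of cells with the genotype WT and the other 3 libraries with the genotype Tfam knockout, made with CRISPR-Cas9, and the labels give no treatment in either. The labels add that edited cells were kept in 2 µg/mL puromycin, and do not make clear whether the controls were too. Whether the edited line was 1 clone or a pool, and whether the libraries of a group came from separate cultures, is not stated. A p-value here thus reflects only how far these libraries differ, which may be technical.

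The respiratory chain passes electrons from NADH (complex I) and succinate (complex II) through ubiquinone to complex III, then by cytochrome c to complex IV, which reduces oxygen. Proton pumping along the way drives the ATP synthase. Complexes I, III, IV and V combine a few subunits encoded in mitochondrial DNA with many encoded in the nucleus, whereas complex II is wholly nuclear. Tfam packages mitochondrial DNA and is needed for its transcription.

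Total counts ran from 13850691 to 28418133 per library. Tfam mRNA was at 39, 38.5 and 37.1 CPM in the controls and 41, 42.7 and 43.2 CPM in the libraries labelled Tfam knockout, where CPM are counts per 1000000 after scaling between libraries (TMM factors). It was thus not lower in the libraries labelled knockout (log2 fold change 0.14 ± 0.0869 (SE), adjusted p = 0.193, edgeR), so the mRNA level does not show the edit, and every direction below is between libraries as labelled. Of 14 microglial and macrophage markers 12 were analysed here. Their summed level was 3102 to 3442 CPM in controls and 2388 to 2633 CPM in the libraries labelled knockout. At an adjusted p below 0.05, 7 of the 10 tested markers were lower (against 22.9% of all genes tested) and 1 was higher (against 21.3%). Csf1r, Cd68 and Trem2 were among those that fell, with log2 fold changes of -1.46, -0.33 and -0.83. The macrophage marker Adgre1 rose by 0.61 on the log2 scale (adjusted p = 1.5e-05, edgeR), and the pan-leukocyte marker Ptprc did not pass at -0.06. The resident microglia genes Tmem119 and Sall1 stayed below 1 CPM in all libraries. The part of this marker difference in the results below was not tested.

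Many nuclear respiratory chain mRNAs fell in the libraries labelled knockout, led by Cox7a1 and Ndufv3, and few rose. In edgeR's quasi-likelihood test (adjusted p below 0.05), 42 of the 79 tested members fell, 3 rose and 34 did not pass. Of all genes tested, 44.2% passed in either direction. The share of members that fell was 53.2%, against 22.9% of all genes tested, and the share that rose was 3.80%, against 21.3%. The 3 that rose were Ndufs1, Cyc1 and Atp5b. A fall of at least 1.5-fold was called for 25 members, against 11.3% of all genes, and no member rose that far, against 8.21%. The median log2 fold change of the members was -0.34, beside 0.00 over all genes tested, and 65 of the 79 values were negative. The 3 controls all lay above the 3 libraries labelled knockout for 34 members (26.6% of all genes) and all below them for 5 (26.3%). In these bulk samples a lower share of an mRNA and fewer copies per cell cannot be told apart.

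**Figure D1:**
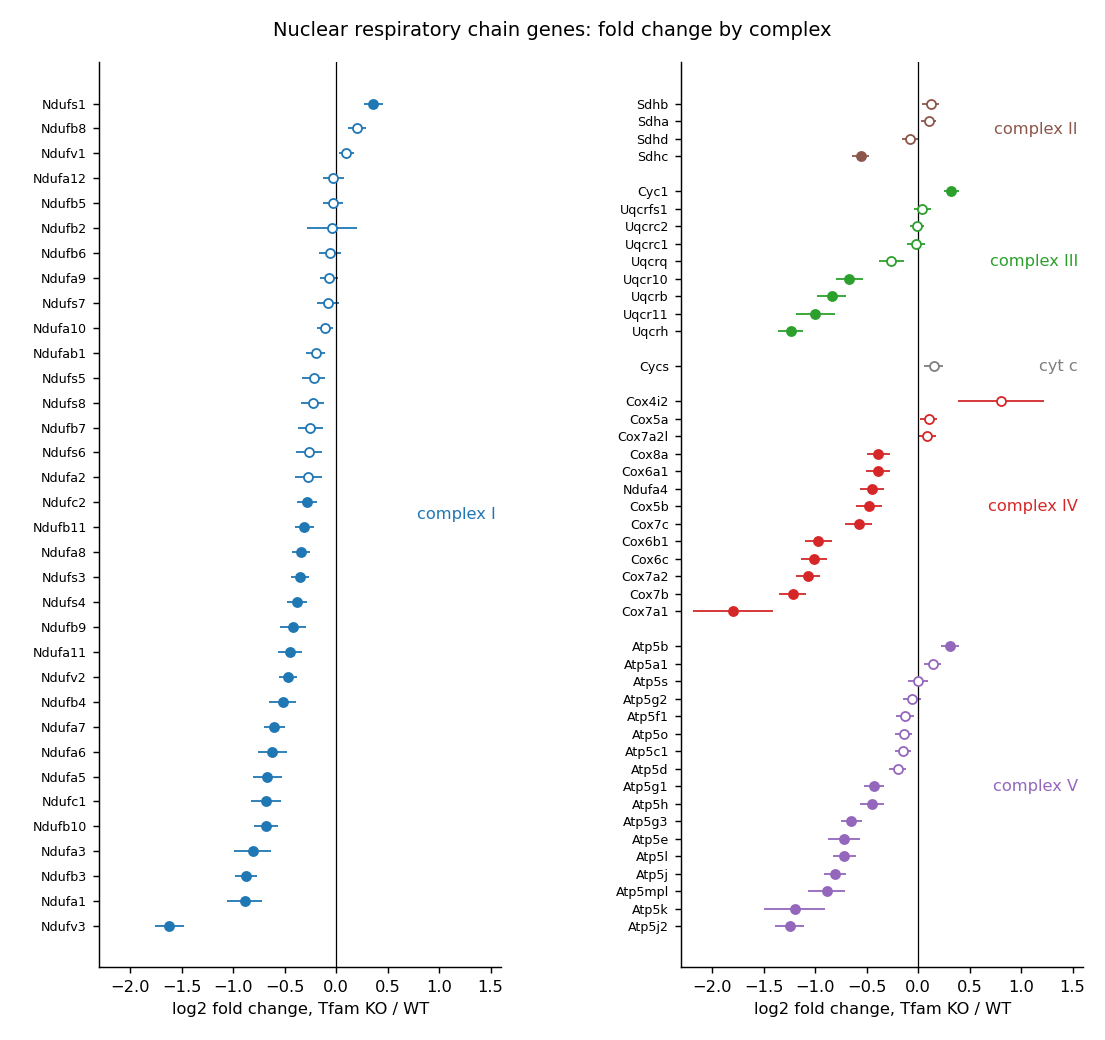
Log2 fold change (libraries labelled Tfam KO over WT, x axis) of 78 tested members, grouped by complex. Points are edgeR estimates, bars are 1 standard error, and filled points passed at an adjusted p below 0.05; within complexes III, IV and V values run from clear falls to values at or above 0.

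Transcript length ran through these results. Members are short, with a median transcript of 742 bases, against 2486 for all genes tested, and short transcripts differed between libraries of the same group. Among the 27 members under 600 bases, the median deviation from each gene's own mean (log2 CPM) was -0.12, 0.55 and 0.45 in controls 1 to 3, and -0.14, -0.44 and -0.30 in libraries 1 to 3 labelled knockout. Control 1 was therefore near the libraries labelled knockout, and far below the other controls, for the shortest members. The same order, at a smaller size, held over all 651 tested genes of that length (-0.04, 0.27 and 0.23 against -0.06, -0.29 and -0.06). Control 1 was the lowest control for 49 of the 51 members under 1000 bases, and for 81.0% of all members, against 35.2% of all genes tested.

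**Figure D2:**
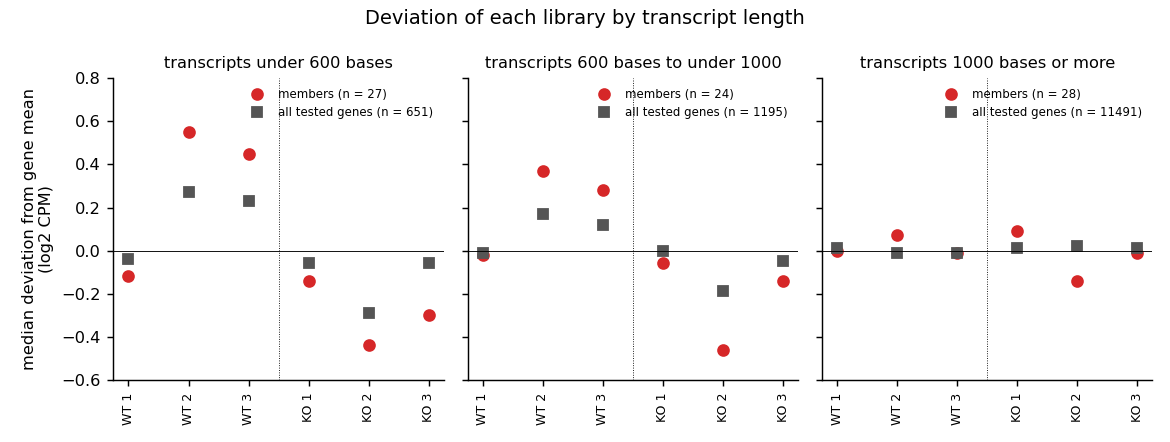
Median deviation of each library from the mean of all 6 (y axis, log2 CPM) for members (circles) and all tested genes (squares) in 3 bands of transcript length; KO marks libraries labelled Tfam knockout. Under 600 bases the members' value in control 1 is -0.12, beside 0.55 and 0.45 in the other controls, and at 1000 bases or more all 6 values lie between -0.14 and 0.09.

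Results are therefore given also without control 1 and with offsets for length and GC, which set every library to the same trend along both. Such offsets also take out any part of the difference between the groups that follows length. Without control 1, 49 members were lower (21.1% of all genes tested in that fit), 3 were higher (20.6%) and the median was -0.40. All 42 members that fell with 6 libraries were again called. As control 1 was the lowest control for most members, leaving it out favours larger falls and is no independent check of them. Without control 2, 36 members were lower (median -0.25), and without control 3, 38 were (median -0.29). The shares of all genes called lower are not given for either of these fits. With the offsets, 37 were lower (22.2%), 10 were higher (25.6%) and the median was -0.10, beside 0.04 over all genes. Scaled by library totals, which raises the median of all genes by 0.10, 40 members were lower (17.7%) and 9 higher (28.6%). Of the 42 members, 36 were lower under both scalings. Cox6a1, Cox8a, Ndufa8, Ndufa11, Ndufb9 and Ndufc2 lost the call with the offsets, and Ndufab1 gained it. The 7 that were called higher only with the offsets were Atp5g2, Cox4i2, Cox5a, Cox7a2l, Ndufb8, Ndufv1 and Sdhb. All 25 members with a fall of at least 1.5-fold were again called lower with the offsets, with log2 fold changes from -1.41 to -0.25 and a median of -0.61 in place of -0.88, but only 14 of them were then still at least 1.5-fold lower.

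By length, 21 of 27 members under 600 bases fell, against 29.6% of the 651 tested genes of that length, and none rose (5.99%). From 600 bases to under 1000, 15 of 24 fell (28.3%) and none rose (10.4%). At 1000 bases or more 6 of 28 fell (22.0%) and 3 rose (23.3%), and the median log2 fold change was -0.02, beside 0.02 over all genes of that length. The 6 longer members that fell were Atp5g1, Cox7b, Ndufs3, Ndufs4, Ndufv2 and Sdhc. Lengths are medians over annotated coding transcripts, which put Cox7b only just in this band, at 1001 bases, and Atp5g1 at 2675.5. Across the 79 members the log2 fold change followed length with a Spearman correlation of 0.63, and 0.41 with the offsets. Over all genes these correlations were 0.13 and 0.00. The members share 6 libraries and their lengths go with function, so these correlations are descriptions and carry no test.

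**Figure D3:**
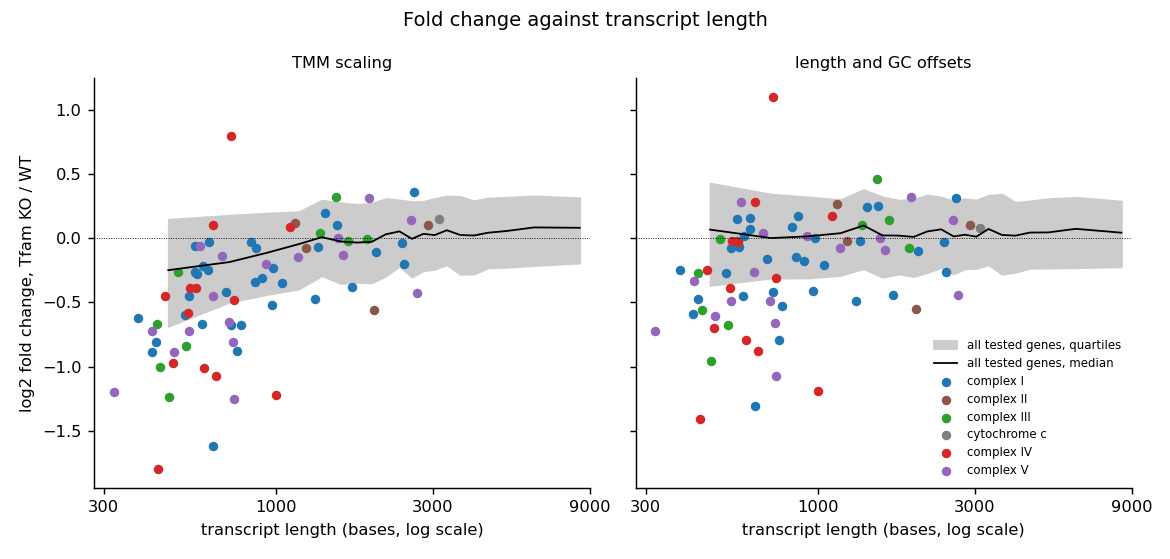
Log2 fold change (libraries labelled Tfam KO over WT, y axis) against transcript length in bases (log scale, x axis), with TMM scaling (left) and with length and GC offsets (right). Coloured points are 78 tested members by complex, the line and grey band are the running median and quartiles of all tested genes; the offsets bring that median close to 0 at all lengths, and members under 1000 bases still lie mostly below it.

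The stretch of DNA before the start site is shown for the member with the largest fall in complexes I, III, IV and V, for Cox7a2, the common counterpart of Cox7a1, and for Atp5b, which rose. Each is the 250 bases before the start in RefSeq on GRCm38.p6, written 5′ to 3′ on the gene's own strand, with capitals marking the letters of an ETS motif, the kind bound by the GABP factor.
Ndufv3, chr17:31519865-31520114, plus strand: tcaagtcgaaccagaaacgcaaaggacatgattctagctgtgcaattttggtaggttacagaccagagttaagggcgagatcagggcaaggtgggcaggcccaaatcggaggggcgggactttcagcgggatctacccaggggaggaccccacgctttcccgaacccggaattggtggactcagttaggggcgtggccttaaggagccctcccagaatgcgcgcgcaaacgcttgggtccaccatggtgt
Uqcrh, chr4:116075071-116075320, minus strand: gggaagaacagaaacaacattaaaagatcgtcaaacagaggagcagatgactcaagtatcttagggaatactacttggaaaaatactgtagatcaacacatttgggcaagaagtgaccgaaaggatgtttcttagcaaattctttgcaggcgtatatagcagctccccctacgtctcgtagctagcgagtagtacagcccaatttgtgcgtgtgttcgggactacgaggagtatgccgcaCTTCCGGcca
Cox7a1, chr7:30183921-30184170, plus strand: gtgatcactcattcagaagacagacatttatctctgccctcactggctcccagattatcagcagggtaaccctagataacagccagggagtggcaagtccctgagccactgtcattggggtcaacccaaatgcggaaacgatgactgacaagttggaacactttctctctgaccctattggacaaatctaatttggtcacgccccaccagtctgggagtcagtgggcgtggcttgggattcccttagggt
Cox7a2, chr9:79759854-79760103, minus strand: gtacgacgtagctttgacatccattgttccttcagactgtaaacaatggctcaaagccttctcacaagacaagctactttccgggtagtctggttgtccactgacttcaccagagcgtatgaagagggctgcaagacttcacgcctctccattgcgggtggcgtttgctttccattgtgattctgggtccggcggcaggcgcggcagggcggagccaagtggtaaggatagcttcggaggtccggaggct
Atp5j2, chr5:145191542-145191791, minus strand: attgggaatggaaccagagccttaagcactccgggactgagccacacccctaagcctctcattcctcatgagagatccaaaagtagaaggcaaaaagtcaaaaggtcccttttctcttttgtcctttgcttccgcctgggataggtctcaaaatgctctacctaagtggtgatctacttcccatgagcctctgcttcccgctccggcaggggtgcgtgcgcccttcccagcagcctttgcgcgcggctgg
Atp5b, chr10:128083057-128083306, plus strand: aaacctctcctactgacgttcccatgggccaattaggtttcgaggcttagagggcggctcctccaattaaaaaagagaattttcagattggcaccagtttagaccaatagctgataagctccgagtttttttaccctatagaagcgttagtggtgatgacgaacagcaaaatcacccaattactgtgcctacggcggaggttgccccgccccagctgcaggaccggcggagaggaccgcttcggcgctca

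RefSeq promoters matched 64 of the 81 members, with 69 start sites. Motifs were searched as exact letters on both strands of the same 250 bases, and none of the motifs contains another. The central letters of the NRF1 motif, GCATGCG, were in 14.5% of the members' promoters and in 3.02% of all 32851. The ETS letters CCGGAAG were in 17.4% and 6.91%, the hypoxia element ACGTG in 20.3% and 16.6%, and the YY1 letters AAGATGG in 1.45% and 4.49%. Of the 6 promoters printed, Uqcrh held 1 ETS match and the other promoters held none of these letters. A match is a description of the sequence and does not show binding.

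Complex I splits into the core subunits that carry electrons and the accessory subunits around them. Of the 7 nuclear core subunits 2 fell (28.6%, against 22.9% of all genes tested) and 1 rose (14.3%, against 21.3%), shares near those of all genes, with a median of -0.08. Of the 28 tested accessory subunits 16 fell (57.1%) and none rose, with a median of -0.32. The core transcripts are longer, at a median of 1312 bases against 674, and the medians with the offsets were 0.10 and -0.15. The difference between core and accessory subunits was not tested.

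Ndufv3, an accessory subunit of the NADH-binding module, was the most reduced member of complex I. It was at 69.2, 115 and 109 CPM in controls 1 to 3 and 33.7, 28.3 and 32.6 CPM in libraries 1 to 3 labelled knockout. All controls were above all libraries labelled knockout, although control 1 was well below the other controls. Ndufv3 fell by 1.62 ± 0.145 on the log2 scale (3.08-fold, adjusted p = 1.17e-07, edgeR), with values of -1.81 without control 1 and -1.31 with the offsets. Its neighbour in that module, the iron-sulphur core protein Ndufv2, was at 126, 155 and 134 against 107, 89.2 and 101 CPM and fell by 0.47 (-0.49 with the offsets). Ndufv1, the flavoprotein that takes electrons from NADH, was at 191, 182 and 181 against 206, 182 and 207 CPM. The groups overlapped for Ndufv1 and it did not pass (log2 fold change 0.10, adjusted p = 0.277, edgeR). These members of 1 functional module thus had values from -1.62 to 0.10.

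Ndufs1, the largest iron-sulphur protein of the matrix arm, rose by 0.36 ± 0.0928 on the log2 scale (adjusted p = 0.00416, edgeR). Its levels were 57.8, 47.1 and 51 CPM in controls and 63.6, 73.2 and 64.3 CPM in the libraries labelled knockout, with no overlap. The gene shares exon sequence with Eef1b2 on the other strand, which these libraries cannot separate, so its count is uncertain. Ndufs3, a core subunit of the quinone module, was at 94.6, 108 and 97.7 against 88.1, 71.8 and 76.2 CPM and fell by 0.35 on the log2 scale (-0.21 with the offsets). A near-identical copy of Ndufs3 is annotated, so its count is uncertain too. Ndufs7 and Ndufs8, iron-sulphur proteins near the quinone site, had log2 fold changes of -0.08 and -0.23 and did not pass.

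Among the accessory subunits, Ndufa1 and Ndufb3 followed Ndufv3. Ndufb3, of the membrane arm, was at 97.5, 137 and 131 CPM in controls and 71.6, 61.9 and 64.9 CPM in the libraries labelled knockout, a fall by 0.88 ± 0.107 (-0.79 with the offsets, the smallest loss to them among the 9 complex I members that fell at least 1.5-fold). Ndufa1, also of the membrane arm, was at 41.1, 76.3 and 74.4 against 37.3, 30 and 35 CPM and fell by 0.89 ± 0.17 (-0.59). For both the groups were apart, for Ndufa1 by a small gap set by control 1. Ndufa3, Ndufa5, Ndufa6, Ndufa7, Ndufb10 and Ndufc1 fell, with log2 fold changes from -0.81 to -0.60, and from -0.53 to -0.25 with the offsets. For Ndufa6, control 1 at 84 CPM was below the 88 CPM of library 1 labelled knockout. Ndufa6 and Ndufa7 had the highest levels per length in complex I, at 308 ± 77.1 and 296 ± 51.4 CPM per kilobase in controls, and their control libraries overlapped. Ndufs4, an accessory subunit of the matrix arm, was at 86.5, 115 and 94.5 against 74.8, 70.5 and 81.2 CPM and fell by 0.38 (-0.44 with the offsets). The acyl carrier protein Ndufab1, which also serves mitochondrial fatty acid synthesis, did not pass at -0.20 and was called at -0.26 with the offsets. Ndufb8 had the highest value of the accessory subunits, 0.20 (adjusted p = 0.0847, edgeR), from 59.1, 62 and 70.4 against 78.8, 66 and 74.4 CPM. The lowest level among the tested members of complex I was that of Ndufb2, at 2.25 ± 0.732 CPM per kilobase, and it shares exons with another gene, as Ndufb8 does.

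In complex II, which has no mitochondrially encoded subunit, 1 of 4 members fell, a share near the 22.9% of all genes tested, and none rose, with a median of 0.01. Sdhc, a membrane anchor, was at 255, 281 and 266 CPM in controls and 200, 168 and 176 CPM in the libraries labelled knockout. The groups were far apart, and control 1 was not out of place. Sdhc fell by 0.56 ± 0.0798 on the log2 scale (adjusted p = 2.34e-05, edgeR), with values of -0.58 without control 1 and -0.55 with the offsets, and its transcript of 1993 bases is not short. Its partner anchor Sdhd was at 139, 134 and 145 against 139, 122 and 134 CPM, with overlap. Sdha, the flavoprotein that oxidises succinate, was at 424, 410 and 401 against 447, 430 and 448 CPM. Its groups did not overlap, yet the difference did not pass (0.10, adjusted p = 0.282, edgeR). Sdhb, the iron-sulphur subunit, was at 139, 159 and 147 against 177, 151 and 155 CPM, did not pass at 0.12, and was called higher with the offsets at 0.27. In controls the levels per length of Sdha, Sdhc and Sdhb (142, 134 and 130 CPM per kilobase) overlapped between neighbours in that order, and Sdhd lay lower at 113.

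In complex III 4 of 9 members fell (44.4%, against 22.9% of all genes tested), the small subunits Uqcrh, Uqcr11, Uqcrb and Uqcr10. Only Cyc1 rose (11.1%, against 21.3%). The median was -0.26, and -0.08 with the offsets. Uqcrh, the hinge protein between cytochrome c1 and cytochrome c, was at 96.8, 147 and 136 CPM in controls and 57.7, 49.3 and 53.1 CPM in the libraries labelled knockout. The groups were clearly apart even with control 1. Uqcrh fell by 1.24 ± 0.12 on the log2 scale (2.36-fold, adjusted p = 3.07e-07, edgeR), with values of -1.39 without control 1 and -0.96 with the offsets. Uqcr11 fell by 1.00 (-0.56 with the offsets), Uqcrb fell by 0.84 (-0.68) and Uqcr10 fell by 0.67 (-0.27). For Uqcr11 and Uqcr10, control 1 at 36.6 and 138 CPM was only just above library 1 labelled knockout at 33.4 and 132 CPM. Uqcrb, which helps form the quinone pocket, has near-identical annotated copies and an uncertain count. Uqcrq, the small subunit with the highest level per length in controls (597 ± 106 CPM per kilobase, ahead of Uqcr10 at 426 with overlap, then Uqcrh at 267), was at 239, 329 and 335 against 297, 211 and 243 CPM and did not pass at -0.26.

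Cyc1, the cytochrome c1 that carries electrons out of complex III, was at 252, 262 and 258 CPM in controls and 337, 307 and 316 CPM in the libraries labelled knockout. Every library labelled knockout was above every control, and the controls were within a narrow range. Cyc1 rose by 0.32 ± 0.0725 on the log2 scale (1.24-fold, adjusted p = 0.00193, edgeR) and by 0.46 with the offsets. The Rieske protein Uqcrfs1 and the large proteins Uqcrc1 and Uqcrc2 had log2 fold changes of 0.04, -0.02 and -0.01, with overlapping groups. Cytochrome c itself, Cycs, was at 80.1, 97.3 and 91.3 against 110, 88.2 and 98.2 CPM and did not pass (0.15, adjusted p = 0.212, edgeR). Cyct, the testis form of cytochrome c, had at most 7 counts in any library and was not tested.

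**Figure D4:**
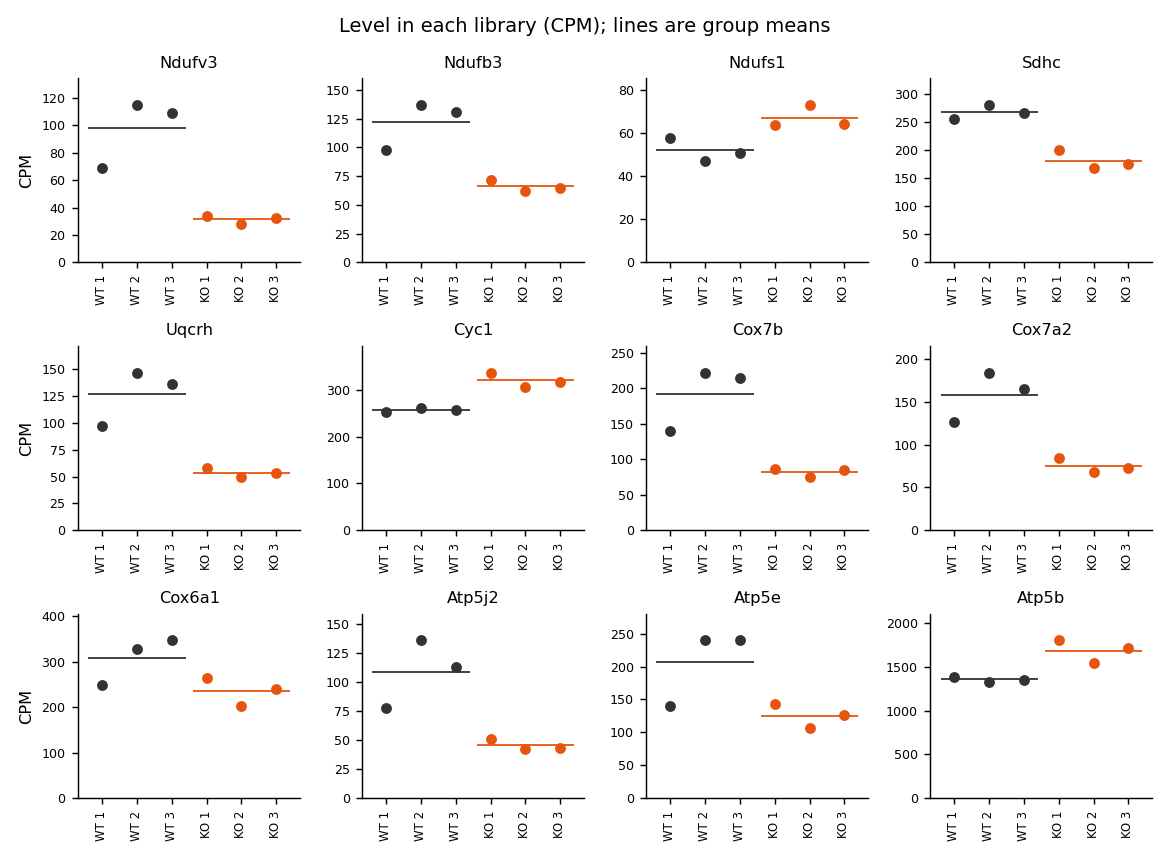
Level in CPM (y axis, from 0) of 12 members in each of the 6 libraries, where KO marks libraries labelled Tfam knockout; lines are group means. Control 1 is the lowest control for Ndufv3, Uqcrh, Cox7b, Cox7a2 and Atp5e, overlaps the libraries labelled knockout for Cox6a1 and Atp5e, and the groups are apart in the upward direction for Ndufs1, Cyc1 and Atp5b.

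Of the complexes, complex IV had the largest share of members that fell, 10 of 13 (76.9%, against 22.9% of all genes tested). None rose (against 21.3%), and the median was -0.48. With the offsets 8 were lower (against 22.2%) and 3 higher (against 25.6%), and the median was -0.31. Cox7b, a small structural subunit, was at 140, 222 and 214 CPM in controls and 86, 75.4 and 85.2 CPM in the libraries labelled knockout. The lowest control was well above the highest library labelled knockout. Cox7b fell by 1.22 ± 0.128 on the log2 scale (2.33-fold, adjusted p = 8.43e-07, edgeR), with -1.39 without control 1 and -1.19 with the offsets. Cox6c, another small membrane subunit, was at 148, 229 and 197 against 107, 81.2 and 95.8 CPM and fell by 1.01 (-0.79 with the offsets). Its exons overlap those of Vps13b on the other strand. Cox6b1, which faces cytochrome c, was at 82.7, 132 and 128 against 61.4, 55.3 and 57.5 CPM and fell by 0.97 (-0.70).

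The 3 members of complex IV with the highest level per length in controls were Cox6a1, Cox8a and Cox7c, at 540 ± 91.5, 489 ± 92.1 and 422 ± 101 CPM per kilobase, and neighbours in this order overlapped. Cox6a1 was at 249, 329 and 347 against 264, 202 and 239 CPM, and Cox8a at 211, 307 and 287 against 222, 185 and 206 CPM. For both, control 1 lay below library 1 labelled knockout. Each was called at -0.39 with 6 libraries, but the call was lost with the offsets (-0.03 and -0.02) and without control 2 or control 3. Cox7c fell by 0.58 (-0.39 with the offsets) and has an annotated near-identical copy. Its control 1 and library 1 labelled knockout were both at 166 CPM. Cox5b and Ndufa4 fell too, with log2 fold changes of -0.48 and -0.45 (-0.31 and -0.25 with the offsets) and overlap through control 1. Cox5a, which has a matrix position beside Cox5b's, was at 98.3, 100 and 101 against 120, 92.6 and 108 CPM and did not pass at 0.10.

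Complex IV is where tissue isoforms are best known, and 4 pairs within complexes IV and V had enough counts to compare. For each library the log2 ratio of counts between the partners was taken, which needs no scaling between libraries, and the groups were compared with an exact two-sided permutation test. With 3 against 3 this exact test cannot go below p = 0.1, so no pair could pass. Values of Cox4i1, Cox6a2, Cox6b2, Cox7b2, Cox8b, Cox8c and Ndufa4l2 were not analysed here, so the other 7 of the 11 pairs listed give no ratio.

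The 7a genes differed within the family. Cox7a2, the widely expressed form, was at 126, 184 and 165 CPM in controls and 84.3, 68.4 and 72.9 CPM in the libraries labelled knockout, and fell by 1.07 ± 0.114 on the log2 scale (2.1-fold, adjusted p = 9.88e-07, edgeR, and -0.88 with the offsets). Cox7a2l, the related protein that joins complexes III and IV in supercomplexes, was at 339, 359 and 321 against 387, 339 and 356 CPM, with overlap, and did not pass at 0.09. The log2 ratio of Cox7a2l to Cox7a2 was 1.43, 0.97 and 0.96 in controls and 2.20, 2.31 and 2.29 in the libraries labelled knockout. The groups were apart, by 1.15 in the mean (exact two-sided permutation p = 0.1, adjusted over the 4 pairs 0.133). Cox7a2l is the longer of the pair (1102.5 against 659 bases), and control 1 stood nearest to the libraries labelled knockout; without it the difference was 1.30.

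Cox7a1, the heart and muscle form, was low throughout, with 53, 56 and 59 counts in controls and 12, 20 and 15 in the libraries labelled knockout. In CPM these were 1.88, 3.65 and 4.18 against 0.567, 1.15 and 1.05, without overlap. Cox7a1 fell by 1.80 ± 0.387 on the log2 scale (3.48-fold, adjusted p = 0.00113, edgeR), with -1.41 with the offsets. Of 8 muscle markers 3 (Actn3, Tnnt3 and Tnni3) were analysed here, and their summed level was also lower, 1.4 to 2.55 CPM against 4.09 to 5.59 in controls; their part in the Cox7a1 value was not tested. Against Cox7a2, which fell too, the log2 ratio of Cox7a1 was -6.05, -5.64 and -5.29 in controls and -7.16, -5.86 and -6.08 in the libraries labelled knockout, with overlap (difference -0.70, exact two-sided permutation p = 0.2, adjusted 0.2). Without library 1 labelled knockout that difference was -0.31. Of the summed 7a levels per length, Cox7a2 made up 43% ± 4.32 in controls and 25.7% ± 0.824 in the libraries labelled knockout, Cox7a2l 55.7% ± 4.72 and 73.8% ± 0.635, and Cox7a1 1.31% ± 0.438 and 0.483% ± 0.19 (SD, n = 3 each).

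Cox4i2, the subunit 4 isoform linked to low oxygen, had 14, 13 and 16 counts in controls and 22, 30 and 20 in the libraries labelled knockout. At 0.498, 0.847 and 1.13 against 1.04, 1.72 and 1.4 CPM the groups overlapped and it did not pass (0.80 ± 0.418, adjusted p = 0.131, edgeR). It was called, at 1.10, only with the offsets of the 13 alternatives that gave a value. AA467197, a small protein that can take the place of Ndufa4 in complex IV, had 5, 6 and 8 counts in controls and 11, 16 and 14 in the libraries labelled knockout, and was too low to be tested.

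**Figure D5:**
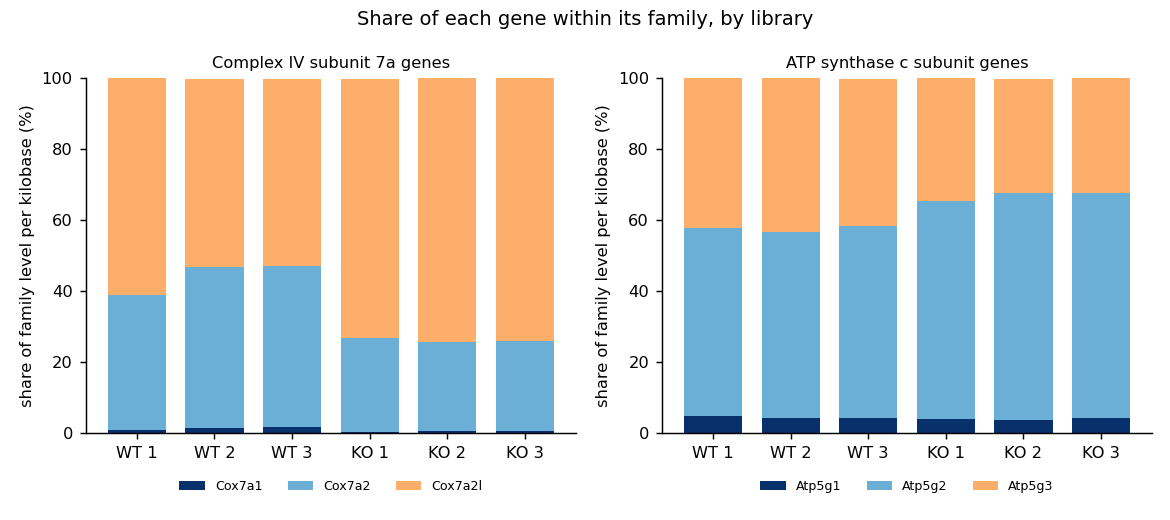
Share of each gene in the summed level per kilobase of its family (y axis, %), per library, for the complex IV subunit 7a genes (left) and the ATP synthase c subunit genes (right); KO marks libraries labelled Tfam knockout. Cox7a2 takes 38% to 45.5% in controls and 25.1% to 26.6% in the libraries labelled knockout, and Atp5g3 41.5% to 43.3% and 32.2% to 34.7%.

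In the ATP synthase 9 of 17 members fell (against 22.9% of all genes tested) and 1 rose (against 21.3%). In the catalytic head 1 of 5 fell and 1 of 5 rose, shares near those of all genes. Among the small membrane subunits 4 of 4 fell, and the difference between these parts was not tested. The complex had a median of -0.43. With the offsets 9 were lower (against 22.2%) and 2 higher (against 25.6%), and the median was -0.26. Atp5b, the catalytic beta subunit, was at 1386, 1330 and 1354 CPM in controls and 1802, 1538 and 1714 CPM in the libraries labelled knockout. Every library labelled knockout was above every control. Atp5b rose by 0.31 ± 0.0866 on the log2 scale (1.24-fold, adjusted p = 0.00726, edgeR), and by 0.32 with the offsets. It had the highest level per length in complex V, at 708 ± 14.6 CPM per kilobase in controls. Its partner Atp5a1, the alpha subunit, was at 970, 961 and 955 against 1147, 978 and 1051 CPM. The groups did not overlap, but the difference did not pass at 0.14 (adjusted p = 0.194, edgeR). The gamma and delta subunits, Atp5c1 and Atp5d, had log2 fold changes of -0.15 and -0.20 and did not pass, and near-identical sequence makes the Atp5c1 count uncertain. Atp5e, the small epsilon subunit, was at 140, 240 and 240 against 143, 106 and 127 CPM. Control 1 lay below library 1 labelled knockout, and Atp5e fell by 0.72 with all 6 libraries (-0.92 without control 1 and -0.33 with the offsets).

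All 4 small membrane subunits fell. Atp5j2, subunit f, was at 77.9, 136 and 113 CPM in controls and 51.1, 42.7 and 43.2 CPM in the libraries labelled knockout. It fell by 1.25 ± 0.145 on the log2 scale (2.38-fold, adjusted p = 2.49e-06, edgeR), with -1.43 without control 1 and -1.07 with the offsets. Atp5k, subunit e, which helps ATP synthases pair, was at 10.4, 32.9 and 29.5 against 12.2, 7.76 and 11 CPM. Control 1 was within the range of the libraries labelled knockout, and Atp5k fell by 1.20 ± 0.294 (-1.58 without control 1 and -0.72 with the offsets). Atp5mpl and Atp5l, the latter subunit g with several annotated copies, fell without overlap, with log2 fold changes of -0.89 and -0.72 (-0.61 and -0.49 with the offsets). For Atp5mpl, control 1 at 61.9 CPM was only just above library 3 labelled knockout at 59.1 CPM, and far below the other controls. The median of the 4 was -1.04, and -0.66 with the offsets. In the stalk, Atp5j (coupling factor 6) was at 138, 189 and 186 against 105, 83.7 and 102 CPM and fell by 0.81 (-0.66), and Atp5h (subunit d) fell by 0.45 (-0.26). Atp5j overlaps Gabpa on the other strand. Atp5f1 and Atp5o, of the same stalk, did not pass at -0.13 and -0.14. Atp5s, a coupling factor that is no subunit of the enzyme, was at 30.6 ± 2.39 CPM in controls and 30.5 ± 1.19 in the libraries labelled knockout (SD, n = 3 each).

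The c ring is made of 1 protein encoded by 3 genes that differ in their targeting peptide. Atp5g3 was at 204, 258 and 244 CPM in controls and 170, 131 and 147 CPM in the libraries labelled knockout, and fell by 0.65 ± 0.0993 (-0.49 with the offsets). Atp5g1 was at 86.1, 95.9 and 91.1 against 74.2, 57.2 and 70.9 CPM and fell by 0.43 (-0.44). For both, all controls were above all libraries labelled knockout. Atp5g2 was at 208, 254 and 260 against 246, 213 and 235 CPM, overlapped, and did not pass (-0.06, and called higher at 0.28 with the offsets). The log2 ratio of Atp5g2 to Atp5g3 was 0.03, -0.02 and 0.09 in controls and 0.53, 0.70 and 0.68 in the libraries labelled knockout, a difference of 0.60 without overlap (exact two-sided permutation p = 0.1, adjusted 0.133). That of Atp5g1 to Atp5g3 differed by 0.21, also without overlap and with the same p-values. Both Atp5g1 and Atp5g2 have near-identical annotated copies, so these ratios are uncertain.

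Summed over members, with each level divided by its transcript length, complex IV was at 3417 ± 591 CPM per kilobase in controls and 2402 ± 260 in the libraries labelled knockout, a ratio of 0.703. The ratio was 0.763 for complex I, 0.776 for complex III, 0.84 for complex V and 0.945 for complex II (n = 3 each). Control 1 had the lowest control sum in each of these, and in complexes I and III it lay below the highest library labelled knockout (3275 against 3293 and 1886 against 1985 CPM per kilobase). The same held in complex V (3622 against 3827) and complex II (510 against 522). In complex IV control 1, at 2743, was above all libraries labelled knockout, which reached 2648. Dividing by length gives short transcripts more weight, and these sums were not made with the offsets. Tested members had a median length of 1612 bases in complex II and 606 in complex IV. The part of length in the order of these ratios was not tested. All members together took 1.26% ± 0.0859 of counts in controls and 1.18% ± 0.0851 in the libraries labelled knockout.

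The subunits encoded in mitochondrial DNA were given as their own list, and their difference from the nuclear ones was not tested. All 12 tested of 13 fell (against 22.9% of all genes tested), with a median of -1.89, and all 12 fell with the offsets (against 22.2%). In complex I, mt-Nd4 was at 1818, 2401 and 1828 CPM in controls and 453, 448 and 412 CPM in the libraries labelled knockout. The much lower mt-Nd4l, with 183, 91 and 81 counts against 27, 19 and 12, fell by 2.48 on the log2 scale (-2.17 with the offsets). For complex III mt-Cytb fell by 2.43 (-2.37), and for complex V mt-Atp6 fell by 2.41 ± 0.279 (-2.11). Levels of mt-Atp6 were 79.1, 190 and 75.2 against 24.8, 14.4 and 25.1 CPM, with control 2 far above the other controls. In complex IV mt-Co1 fell by 1.40 (-1.41), from 20678, 27489 and 21828 to 9032, 8892 and 8553 CPM. The list's median was below the value of every tested nuclear member, but mt-Co1 fell less than the nuclear Cox7a1 and Ndufv3 with TMM scaling. That order was not kept with the offsets, where mt-Co1 was at -1.41, Cox7a1 at -1.41 and Ndufv3 at -1.31. The libraries hold poly(A) RNA, and nuclear copies of mitochondrial sequences may share reads with some of these mRNAs.

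Of 9 tested paralogs and modulators of the complexes, 6 fell (against 22.9% of all genes tested) and 1 rose (against 21.3%). Higd1a, a complex IV assembly factor induced by low oxygen, was at 50.7, 76.3 and 74.7 CPM in controls and 26.9, 20.6 and 26.3 CPM in the libraries labelled knockout, and fell by 1.44 ± 0.141 (-1.45 with the offsets). Usmg5, a small ATP synthase subunit outside the symbol rule, fell by 0.95 and the complex IV factor Higd2a fell by 0.59. Dmac1, an assembly factor of complex I, fell by 0.40. The uncoupling-protein family member Ucp2 fell by 0.28, a call lost with library totals (-0.18). The ATP synthase inhibitor Atpif1 fell by 0.37, a call lost with the offsets (-0.11). Lonp1, the matrix protease that can process Cox4 isoforms, was at 608, 560 and 572 against 809, 737 and 770 CPM and rose by 0.41.

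Among 12 tested transcriptional regulators of respiratory genes, 6 rose (against 21.3% of all genes tested) and 2 fell (against 22.9%), with the same counts with the offsets. With library totals 7 were higher, Tfam among them (0.24), and 1 was lower. Myc, a growth regulator that also acts on mitochondrial genes, was at 4.84, 4.95 and 5.24 CPM in controls and 16.8, 18.2 and 14.8 CPM in the libraries labelled knockout, and rose by 1.73 ± 0.146 (adjusted p = 5.51e-08, edgeR). Nrf1, the factor of the motif above, was at 62.2, 53 and 53.9 against 69.9, 79.9 and 67.2 CPM and rose by 0.36. Both beta subunit genes of GABP rose, Gabpb2 by 0.45 and Gabpb1 by 0.34, while its DNA-binding subunit Gabpa did not pass at 0.10. Pprc1, a coactivator of the PGC-1 family, rose by 0.40 and Arnt by 0.41. The low-oxygen factor Epas1 fell by 0.63. Yy1 fell by 0.19, a call lost with library totals (-0.09). The groups did not overlap for any of the 8 regulators that passed, but these were picked by the test, so this adds no support. Over all genes tested the groups were apart downward for 26.6% and upward for 26.3%. These are mRNA levels, and no activity was measured.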

How the data were processed

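RNA-seq of poly(A) RNA from 6 BV2 libraries was used. Libraries were made with a kit that does not mark strand, per the labels' protocols. The submitters' processing notes name bcl2fastq 2.17, HISAT2 2.1.0, SAMtools 1.9, featureCounts 2.0.0 and build GRCm39. The counting of multi-mapping reads is not described in those notes. The deposited count table holds the authors' whole-number counts per gene, not normalized, with symbols as deposited. From the values, the authors' log2 table holds counts scaled to a common library total with 8 added. Totals were 28418133, 16328037 and 14642397 counts in controls and 20889786, 16511870 and 13850691 in libraries labelled knockout. Libraries of 1 group differed beyond counting error.

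The whole table was fitted in R 4.3.3 with edgeR 4.0.16 (TMM factors, filterByExpr, quasi-likelihood test, unpaired, Benjamini-Hochberg adjustment over 13403 genes), tested on simulated data. SE was taken as the absolute log2 fold change divided by the root of F. Isoform ratios are log2 of counts plus 0.5, tested with scipy 1.17.1. Alternatives were DESeq2 1.42.0, limma 3.58.1 on the authors' log2 table, other scalings (median-ratio factors, library totals), other filters (none, 5 CPM in 3 libraries), a replicate block, splines of length and GC as offsets, each library left out in turn, and a pseudocount of 2 for the ratios. Lengths (median over coding transcripts), exon overlaps and near-identical copies (BLAST 2.17.0, at least 95% identity over 50% of the transcript) came from GENCODE M21. Its build, GRCm38, is not the authors', and its coordinates were used only to find exon overlaps among its own genes. All 79 tested members had a length.

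The members and lists were chosen with earlier results of these data known. Any member could be named. In full are isoform partners, the 3 highest and 3 lowest log2 fold changes and 3 highest levels per length in each complex, and members called at 1.5-fold; others are given by range or count, and 1 member's own values are not reported here. Length bands were chosen after the data were seen. The motif letters are central parts of known motifs, shortened after longer NRF1 and YY1 forms had been searched. Same-numbered libraries did not deviate together, so numbers were not taken as pairs.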

Additional observations from a re-analysis of the deposited data

How the results depend on the processing

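The 25 members with a fall of at least 1.5-fold, and Ndufs1, Cyc1 and Atp5b, passed at an adjusted p below 0.05 in the same direction in each of the 14 alternatives that gave a value for them, although with the offsets 14 of the 25 were still 1.5-fold lower. Of the 42 that fell, 34 passed in each. Lower counts ranged from 36 to 49, and higher counts from 3 to 4, with 1 library left out. The count of higher members was 10 on the authors' log2 table, 10 with the length and GC offsets and 9 with library totals. By complex, in that order of settings, higher counts were 3, 3 and 3 in complex I (1 to 2 with a library left out), 2, 1 and 2 in complex II and 2, 2 and 2 in complex V. In complex IV they were 1 on the log2 table and 3 with offsets, and cytochrome c was called on the log2 table and with library totals (1 each). The median moved to -0.10 over all members with offsets. In complex III it moved to -0.16 on the log2 table, -0.08 with offsets, -0.16 with library totals and between -0.40 and -0.15 with 1 library left out. The cause was not tested.

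Signs changed in at least 1 alternative for 16 of 78 members, none of them called with the reported settings. On the log2 table and with library totals, in that order, values were 0.05 and 0.04 for Atp5g2, 0.10 and 0.10 for Atp5s, 0.06 and 0.07 for Ndufa12, 0.02 and 0.03 for Ndufa9, 0.05 and 0.06 for Ndufb2, 0.07 and 0.07 for Ndufb5, 0.03 and 0.04 for Ndufb6, 0.02 and 0.02 for Ndufs7, 0.01 and 0.01 for Sdhd, 0.08 and 0.08 for Uqcrc1, 0.09 and 0.09 for Uqcrc2, and 0.04 and 0.04 for the marker Ptprc. With offsets they were 0.02 for Atp5d, 0.28 for Atp5g2, 0.04 for Atp5o, 0.09 for Ndufa12, 0.16 for Ndufb5, 0.15 for Ndufb6, 0.07 for Ndufb7, 0.02 for Ndufs5, 0.17 for Ndufs7 and 0.14 for Uqcrc1. Atp5s was at 0.00 with median-ratio factors and 0.01 unfiltered. With 1 library left out, values ran from -0.14 to 0.01 for Atp5g2, -0.03 to 0.07 for Atp5s, -0.13 to 0.05 for Ndufa12, -0.12 to 0.02 for Ndufa9, -0.30 to 0.18 for Ndufb2, -0.11 to 0.06 for Ndufb5, -0.12 to 0.05 for Ndufb6, -0.18 to 0.01 for Ndufs7, -0.10 to 0.07 for Uqcrc1, -0.04 to 0.02 for Uqcrc2 and -0.03 to 0.12 for Uqcrfs1.

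The libraries share only replicate numbers: deviations of same-numbered libraries correlated at -0.104, -0.114 and 0.04. With the replicate block 41 members were lower and 3 higher. Among members, 11 tested ones have a near-identical copy and 23 share exons with a gene on the other strand, which limits their counts. Of the 47 with neither these nor same-strand overlaps, 30 fell (against 22.9% of all genes tested) and 2 rose (against 21.3%). This count takes no account of transcript length.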

Other observations

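Genes that feed electrons to ubiquinone beside the complexes, or make ubiquinone, were read as a further list. Of 19 tested, 7 rose and 2 fell, with a median of 0.19 (9 and 3 with the length and GC offsets), against 21.3% higher and 22.9% lower over all genes tested. Coq10b, a ubiquinone-binding protein, was at 13.3, 13.8 and 11.7 CPM in controls and 29.3, 27.6 and 24.8 CPM in the libraries labelled knockout, and rose by 1.07 ± 0.114 (adjusted p = 9.58e-07, edgeR). Its paralog Coq10a was at 51.4, 60.7 and 57.2 against 43.7, 37.1 and 41.9 CPM and fell by 0.46. Coq8a, a kinase-like protein of ubiquinone synthesis, rose by 0.77. Gpd2, which passes electrons from glycerol 3-phosphate to ubiquinone, was at 60.8, 61.7 and 58.4 against 88.9, 95.5 and 87.8 CPM and rose by 0.59. The groups were apart for each of these. Dhodh of pyrimidine synthesis rose by 0.26 and the sulphide oxidase Sqor by 0.36, while Etfdh, which takes electrons from fatty acid oxidation, fell by 0.41.

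Markers of other cell types were low. The summed levels were 0.142 to 1.5 CPM in controls and 0.804 to 1.61 CPM in the libraries labelled knockout for neurons, 3.39 to 4.91 and 3.49 to 5 CPM for oligodendrocytes, and 1.42 to 2.61 and 1.51 to 2.09 CPM for fibroblasts and vascular cells. None of the 6 male germ cell markers or the 3 astrocyte markers was analysed here.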
